A study of Mus musculus with 31 samples.

Results

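The genes described here are the Wnt ligands, the Frizzled receptors and the secreted antagonists of the Sfrp and Dkk families, 37 of the 18194 genes measured. Members were taken by name: every gene whose symbol is Wnt, Fzd, Sfrp or Dkk followed by a number, with or without a letter a or b, on a probe set that carries 1 symbol. This gave 19 Wnt genes, 10 Fzd genes, 4 Sfrp genes (Sfrp1, Sfrp2, Sfrp4 and Sfrp5) and 4 Dkk genes (Dkk1 to Dkk4), on 73 probe sets. For 22 members with more than 1 probe set, the gene is represented by whichever probe set had the highest mean level across the 31 arrays, and the other 15 have 1. The rule used no difference between groups.

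Wnt proteins are lipid-modified signals that act over short distances between cells. In the best known branch they bind a Frizzled receptor together with the coreceptor Lrp5 or Lrp6, which stops the destruction of beta-catenin and lets it switch on target genes through Tcf and Lef factors, while other branches act through Frizzled, Ror and planar polarity proteins on cell shape and movement. Sfrp proteins carry a Frizzled-like domain that binds Wnt proteins outside the cell, and Dkk1 and its relatives block the Lrp coreceptors. In mouse pluripotent cells Wnt signals support self-renewal, and during the first steps of differentiation they are needed for mesoderm and are later held back for cardiac cells to form.

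The study measured induced pluripotent stem cells (iPSCs) at day 0 and embryoid bodies, free-floating aggregates of differentiating cells, at day 11, with 1 array for each sample. Control cells came from wild type CD1 mice (10 arrays at day 0, 9 at day 11) and Nos3-/- cells from the strain B6.129P2-Nos3tm1unc/J (6 arrays on each day), which lacks working endothelial nitric oxide synthase. Tail-tip fibroblasts of adult males were reprogrammed with Sendai virus in both genotypes, the iPSCs grew on growth-arrested mouse embryonic fibroblast feeders, and embryoid bodies differentiated spontaneously after aggregation in microwells. Nothing in the labels says how many lines or cultures the arrays of a group came from, so a p-value here sets a difference against array-to-array spread that may be technical, and the number of arrays limits the precision. Genotype and strain cannot be told apart, since each genotype has its own strain. Levels are log2 intensities, on which a step of 1 is a 2-fold change, and they are compared within a gene and never between genes.

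Array medians lay between 6.13 and 6.23 and no 2 arrays were identical. Nos3, the deleted gene, measured 6.65 ± 0.24 (SD, n = 10) in control and 6.98 ± 0.18 (n = 6) in Nos3-/- iPSCs, and 7.05 ± 0.21 (n = 9) and 6.88 ± 0.14 (n = 6) in embryoid bodies. It was higher in Nos3-/- iPSCs by 0.33 (limma adjusted p = 0.0295), against the direction that a deletion would give, and did not pass between the embryoid bodies (-0.17, adjusted p = 0.386). The position of its probe set relative to the targeted part of the gene is not stated in the labels, so this is no check of them. The pluripotency genes Pou5f1, Sox2 and Nanog had mean levels of 12.56, 10.89 and 10.88 in control iPSCs and of 12.69, 11.92 and 12.32 in Nos3-/- iPSCs. In embryoid bodies they still measured 11.66, 10.51 and 10.44 in control and 12.37, 11.71 and 11.69 in Nos3-/-, while 9 of 10 cardiomyocyte genes in control and 8 of 10 in Nos3-/- had risen since day 0.

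Some arrays stood apart from their group. The array least like the others was array 1 among control iPSCs, array 3 among Nos3-/- iPSCs, array 1 among control embryoid bodies and array 3 among Nos3-/- embryoid bodies, with median correlations to their groups of 0.983, 0.975, 0.979 and 0.961. The mean of 13 pluripotency genes was 9.33 on array 3 of the Nos3-/- iPSCs and 11.56 to 12.10 on the other 5, and it was 11.57 and 11.36 on control arrays 1 and 9 against 9.97 to 10.78 on the other 8. Comparisons of iPSCs therefore rest on groups that are mixed in this respect, and the calls that changed without the least correlated array of each group are given below.

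Promoters are shown for 4 members whose levels moved in the comparisons below, so that the sequence at the start of each gene can be read beside its values: Dkk1 and Fzd5, lower in Nos3-/- iPSCs, Fzd4, lower in Nos3-/- embryoid bodies, and Wnt6, higher there. Each runs from 250 bases before to 50 bases after the RefSeq start on assembly GRCm38.p6. Dkk1 lies at chr19:30549447-30549746 on the minus strand, Fzd4 at chr7:89404116-89404415 on the plus strand, Fzd5 at chr1:64737701-64738000 on the minus strand and Wnt6 at chr1:74771642-74771941 on the plus strand. Capitals mark a match to CTTTGAT or CTTTGTT, letters that Tcf and Lef proteins bind, searched on both strands.
Dkk1: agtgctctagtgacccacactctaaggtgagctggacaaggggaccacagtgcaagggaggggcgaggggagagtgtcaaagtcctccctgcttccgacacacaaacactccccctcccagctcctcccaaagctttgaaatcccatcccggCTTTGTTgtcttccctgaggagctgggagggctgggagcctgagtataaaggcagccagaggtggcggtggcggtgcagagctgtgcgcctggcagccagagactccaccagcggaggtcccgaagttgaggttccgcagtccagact
Fzd4: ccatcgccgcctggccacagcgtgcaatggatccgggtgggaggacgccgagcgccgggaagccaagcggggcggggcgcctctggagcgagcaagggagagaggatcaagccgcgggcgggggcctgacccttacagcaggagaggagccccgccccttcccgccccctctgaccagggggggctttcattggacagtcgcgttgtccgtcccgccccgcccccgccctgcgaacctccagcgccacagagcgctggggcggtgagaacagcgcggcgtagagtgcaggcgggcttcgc
Fzd5: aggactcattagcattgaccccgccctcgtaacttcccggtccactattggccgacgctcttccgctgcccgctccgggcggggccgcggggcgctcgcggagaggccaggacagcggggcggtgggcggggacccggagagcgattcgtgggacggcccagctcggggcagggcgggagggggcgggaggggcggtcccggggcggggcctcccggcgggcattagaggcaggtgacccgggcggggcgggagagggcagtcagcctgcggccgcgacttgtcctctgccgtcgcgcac
Wnt6: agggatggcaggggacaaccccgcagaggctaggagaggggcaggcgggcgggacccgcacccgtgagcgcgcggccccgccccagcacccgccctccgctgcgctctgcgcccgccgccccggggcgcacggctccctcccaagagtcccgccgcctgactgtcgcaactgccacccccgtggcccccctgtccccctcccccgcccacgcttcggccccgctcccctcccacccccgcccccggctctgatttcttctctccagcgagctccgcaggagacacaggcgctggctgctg
The Dkk1 window holds 1 match, at position 153 counted from 1 at its 5′ end, and the other 3 windows hold none. Of 28 promoters found for 25 members, 5 (17.9%) held a match, those of Dkk1, Fzd7, Wnt11, Wnt3 and Wnt5b, against 9.33% of 32851 promoters of the same length. Other promoters of Wnt11 and Wnt5b held none. The median GC content was 68.7% in the member promoters and 52.7% in all, and the shares were not tested against each other. A match is a stretch of letters and no measured site, and a window without one says nothing about binding elsewhere.

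**Figure D1:**
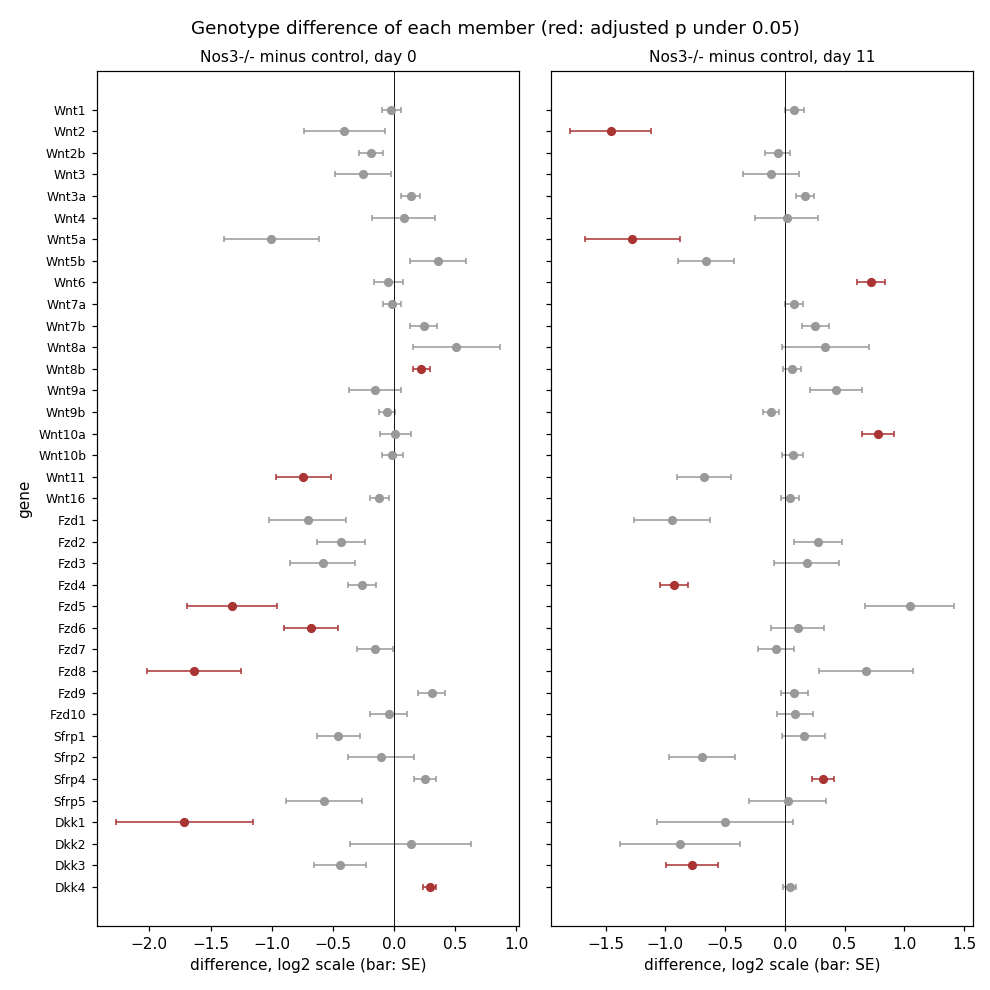
Difference in log2 intensity between Nos3-/- and control for each of the 37 members at day 0 (left) and day 11 (right); points are the fitted differences, bars their standard errors, and red marks an adjusted p under 0.05. The members past the threshold at day 0 run from -1.71 for Dkk1 to 0.29 for Dkk4, and those at day 11 from -1.46 for Wnt2 to 0.78 for Wnt10a.

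The first comparison asked how Nos3-/- iPSCs differ from control iPSCs. The receptors Fzd5, Fzd6 and Fzd8, the antagonist Dkk1 and the ligand Wnt11 were lower in Nos3-/- iPSCs, and the low-level genes Dkk4 and Wnt8b were slightly higher. In limma with Benjamini-Hochberg adjustment over all genes, 7 of 37 members (18.9%) passed, which means an adjusted p under 0.05, against 16.6% of all genes. Higher members were 2 of 37 against 9.17% of all genes, and lower members 5 of 37 (13.5%) against 7.47%. The median difference was -0.12 over the members and 0.01 over all genes. In these bulk samples fewer cells of a type and less RNA per cell cannot be told apart.

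Among the ligands, Wnt11, which acts mostly through the branches that do not use beta-catenin and takes part in gastrulation movements and heart development, had lowest, median and highest levels of 6.55, 7.42 and 7.67 in control and 5.88, 6.63 and 7.19 in Nos3-/- iPSCs. Most Nos3-/- arrays lay below most control arrays, but the ranges overlapped. The difference was -0.74 (SE 0.22, limma adjusted p = 0.0229). Wnt8b, a ligand of the developing forebrain, ran from 4.54 to 4.90 in control and from 4.85 to 5.19 in Nos3-/- iPSCs, a difference of 0.22 (SE 0.07, limma adjusted p = 0.0289). It did not pass without array 3 of the Nos3-/- iPSCs (0.17, adjusted p = 0.0771) or with the mean of its 3 probe sets (0.08, adjusted p = 0.369). Wnt5a, the ligand best known for acting through Ror2, had a difference of -1.004 and did not pass (limma adjusted p = 0.0725).

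Among the receptors, Fzd8 had lowest, median and highest levels of 7.83, 9.56 and 9.85 on control arrays and 6.25, 7.45 and 10.00 on Nos3-/- arrays. The highest Nos3-/- value belonged to array 3, which lay above every control array, and the next highest was below every control array. The difference was -1.63 (SE 0.38, limma adjusted p = 0.00432). Fzd5, the close relative of Fzd8 and like it a receptor of the beta-catenin branch with roles in eye development, showed the same arrangement: 10.35, 11.71 and 12.29 in control and 8.84, 9.99 and 12.64 in Nos3-/- iPSCs. Array 3 again held the top Nos3-/- value and the other 5 lay at or below 10.16, under the lowest control array. The Fzd5 difference was -1.32 (SE 0.36, limma adjusted p = 0.0134). Fzd6, a receptor of the planar polarity branch, ran from 8.41 to 9.98 in control and from 7.98 to 9.89 in Nos3-/- iPSCs, a difference of -0.68 (SE 0.22, limma adjusted p = 0.0310). A second probe set of each of these 3 receptors also passed in the same direction.

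Among the antagonists, Dkk1, the coreceptor blocker needed for head formation, had lowest, median and highest levels of 8.18, 10.44 and 10.76 in control and 5.56, 8.26 and 10.91 in Nos3-/- iPSCs. The Nos3-/- arrays spread from above the control range, where array 3 lay, to far below it. The difference was -1.71 (SE 0.56, limma adjusted p = 0.0341), and the other probe set of Dkk1 did not pass (-1.59, adjusted p = 0.0542). Dkk4, a coreceptor blocker of the same family, lay between 4.66 and 4.80 in control and between 4.85 and 5.29 in Nos3-/- iPSCs. It was the one member whose groups did not overlap at day 0 (2.70% of members against 1.92% of all genes), with a difference of 0.29 (SE 0.05, limma adjusted p = 0.000299) near the bottom of the intensity scale. On the probe set that stood for each gene the 4 Sfrp genes taken by name did not pass, with differences from -0.57 for Sfrp5 to 0.25 for Sfrp4. Other probe sets of Sfrp1 passed in opposite directions, as described with its probe sets.

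**Figure D2:**
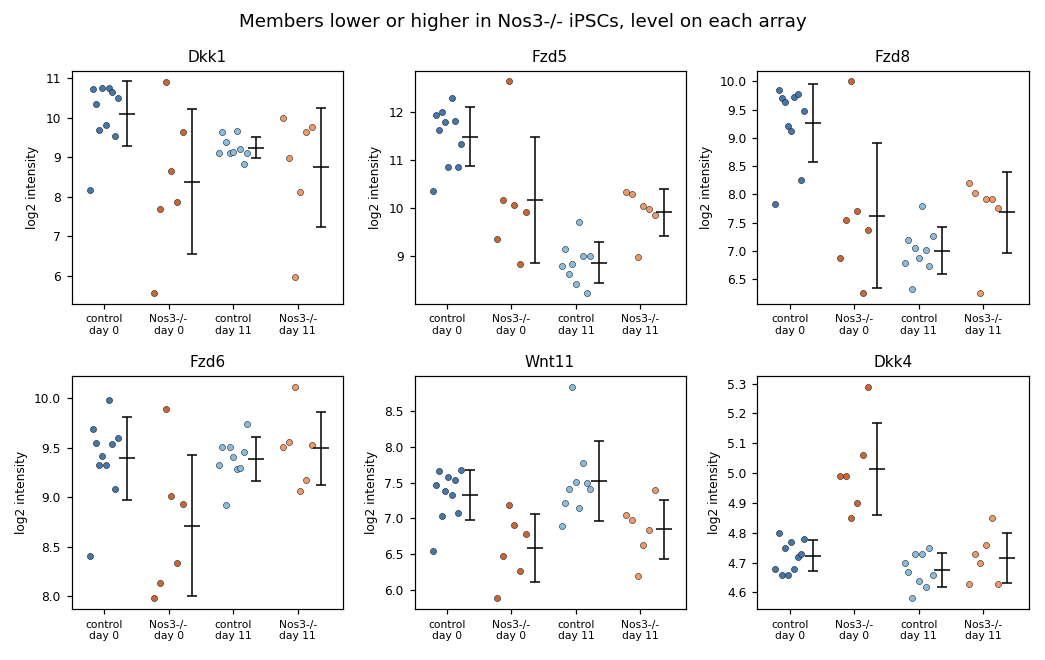
Level (log2 intensity) on each array for 6 members that passed between genotypes at day 0; each point is 1 array, and bars give the mean and SD of a group (10, 6, 9 and 6 arrays). In Nos3-/- iPSCs 1 array stands above the rest for Dkk1 (10.91), Fzd5 (12.64), Fzd8 (10.00) and Fzd6 (9.89), and the Dkk4 values of the 2 iPSC groups do not overlap.

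Without the least correlated array of each group, 16 members passed between the iPSC groups, and 28.6% of all genes against 16.6% with every array. The differences of Fzd8 (-2.27), Fzd5 (-1.95), Dkk1 (-2.43) and Fzd6 (-1.02) were larger in size, Wnt8b lost its call, and 10 members passed as well. Of these, Sfrp5 (-1.10), Wnt5a (-1.16), Fzd1 (-0.80), Fzd2 (-0.61), Fzd3 (-0.86) and Fzd7 (-0.32) were lower and Fzd9 (0.38), Sfrp4 (0.32) and Wnt7b (0.31) higher, and the last was Sfrp1, whose probe sets disagree in direction, as described with its probe sets. Leaving out array 3 of the Nos3-/- iPSCs alone gave 12 members, leaving out array 5 gave 3, and leaving out Nos3-/- array 2, control array 2 or control array 10 gave 4 each. The shares of all genes in these fits are not given here, so these counts do not set the members apart from other genes. Fzd8 and Dkk4 passed with any 1 of the 16 iPSC arrays left out, whereas Dkk1 lost its call in 7 of these 16 fits, Fzd6 in 6, Wnt8b in 5, Wnt11 in 3 and Fzd5 in 1. In a fit of the iPSC arrays alone, with the same differences, Fzd5 (adjusted p = 0.0537), Dkk1 (0.0663) and Fzd6 (0.0863) did not pass, and the 7 members that did included Fzd1 (-0.71), Fzd4 (-0.26) and Sfrp4 (0.25).

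Some cell type markers also differed between the iPSC groups. Of 19 fibroblast genes, which would include the feeders, 7 were lower in Nos3-/- iPSCs, with list means of 9.49 to 10.95 on control and 9.31 to 10.24 on Nos3-/- arrays, and the collagen genes Col1a1, Col1a2 and Col3a1 had differences of -1.26, -0.82 and -0.75, the last not past the threshold. Of 11 genes listed for yolk-sac endoderm 2 were lower, Sox17 (-2.55) and Foxa2 (-1.91), named after their values were seen. Afp, Ttr and Apoa1 did not pass, with means of 5.24, 7.01 and 5.93 in control and 5.12, 6.83 and 5.98 in Nos3-/- iPSCs. The median difference over the list was -0.19. The means of that list ran from 6.53 to 8.90 on control arrays and from 5.72 to 6.58 on 5 Nos3-/- arrays, with array 3, the high array for Dkk1, Fzd5 and Fzd8, at 7.28. Their part in the members' differences was not tested. Of 13 pluripotency genes, 4 were higher in Nos3-/- iPSCs, among them Nanog (1.44) and Sox2 (1.03), but not Pou5f1 (0.13). Zfp42 of the same list, named after its value was seen, had means of 10.68 in control and 9.31 in Nos3-/- iPSCs and did not pass. The fibroblast mean was then added as a covariate on the iPSC arrays. The differences were -1.73 for Dkk1, -1.21 for Fzd8, -0.99 for Fzd5, -0.53 for Fzd6 and -0.71 for Wnt11. In that fit limma called 0 members (8 at an unadjusted p under 0.05) and 1.58% of all genes. With the pluripotency mean the differences were -0.68 for Dkk1, -0.69 for Fzd8, -0.48 for Fzd5, -0.17 for Fzd6 and -0.40 for Wnt11. Here limma called 0 members (6 unadjusted) and 3.8% of all genes, while Dkk4 (0.26) and Wnt8b (0.26) kept their size.

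The second comparison set Nos3-/- against control embryoid bodies. The ligands Wnt6 and Wnt10a were higher in Nos3-/- embryoid bodies, the ligands Wnt2 and Wnt5a, the receptor Fzd4 and the antagonist Dkk3 were lower, and Sfrp4 was slightly higher. Again 7 of 37 members (18.9%) passed in limma, here against 9.70% of all genes, with 3 higher (8.11%, against 4.41%) and 4 lower (10.8%, against 5.29%). The groups did not overlap for Wnt6 and Fzd4, which is 5.41% of the members against 2.60% of all genes. The median difference was 0.06 over the members and 0 over all genes.

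Wnt6, a ligand of surface ectoderm and other epithelia, had lowest, median and highest levels of 6.67, 6.79 and 6.88 in control and 6.95, 7.46 and 8.07 in Nos3-/- embryoid bodies. Every Nos3-/- array was above every control array, and the control arrays were tightly grouped. The difference was 0.72 (SE 0.12, limma adjusted p = 7.96e-05), and the other probe set gave 1.49 (adjusted p = 1.33e-05). Wnt10a, a ligand of teeth and skin appendages, measured 4.85, 5.12 and 5.40 in control and 5.13, 5.89 and 6.71 in Nos3-/- embryoid bodies. Of the 6 Nos3-/- arrays, 5 lay above every control array and array 3 within their range. The difference was 0.78 (SE 0.13, limma adjusted p = 0.000137). Wnt6 and Wnt10a are neighbours among protein-coding genes on assembly GRCm38.p6. Of 4 such pairs of members, the others being Wnt3a with Wnt9a, Wnt9b with Wnt3 and Wnt10b with Wnt1, it was the one in which a gene passed in any of the 5 comparisons.

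Among the ligands that were lower, Wnt2, which is made by early cardiac and lung mesoderm, had lowest, median and highest levels of 6.13, 7.26 and 8.58 in control and 4.65, 5.98 and 7.41 in Nos3-/- embryoid bodies. The ranges overlapped widely, since both groups spread over more than 2 log2 units. The difference was -1.46 (SE 0.34, limma adjusted p = 0.00423), and it passed with any 1 array left out. Wnt5a measured 8.81, 9.34 and 10.39 in control and 6.00, 8.64 and 9.41 in Nos3-/- embryoid bodies, with array 3 the lowest by far. Its difference of -1.28 (SE 0.39, limma adjusted p = 0.0357) was -0.83 without that array and no longer passed (adjusted p = 0.115), although its other 3 probe sets passed in the same direction with every array.

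Fzd4, a receptor for Wnt proteins and for Norrin that is needed for retinal vessels, had lowest, median and highest levels of 7.50, 7.70 and 8.09 in control and 6.36, 6.72 and 7.37 in Nos3-/- embryoid bodies. The top Nos3-/- array stayed below the bottom control array. The difference was -0.93 (SE 0.12, limma adjusted p = 1.54e-06), and 1 of its other 2 probe sets passed in the same direction (-0.81, adjusted p = 0.00209). The receptors Fzd5, Fzd1 and Fzd8 had differences of 1.05, -0.95 and 0.68 that did not pass (limma adjusted p = 0.0741, 0.0569 and 0.336). Without array 3 of the Nos3-/- embryoid bodies, Fzd5 passed with a difference of 1.23 (adjusted p = 0.0328).

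Of the antagonists, Dkk3, a divergent member of the family whose part in Wnt signalling is less clear, measured 6.14, 7.35 and 7.77 in control and 5.93, 6.73 and 6.87 in Nos3-/- embryoid bodies. Apart from 1 low control array at 6.14, the control arrays lay above the Nos3-/- arrays. The difference was -0.78 (SE 0.22, limma adjusted p = 0.0183), and the other probe set passed too (-0.71, adjusted p = 0.00719). Sfrp4, a Wnt-binding protein, differed by 0.32 (SE 0.09, limma adjusted p = 0.0266) on ranges of 6.03 to 6.62 in control and 6.36 to 6.83 in Nos3-/- embryoid bodies, and lost its call in 6 of 15 fits without 1 array. Dkk1, lower at day 0, had a difference of -0.50 at day 11 (limma adjusted p = 0.698).

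**Figure D3:**
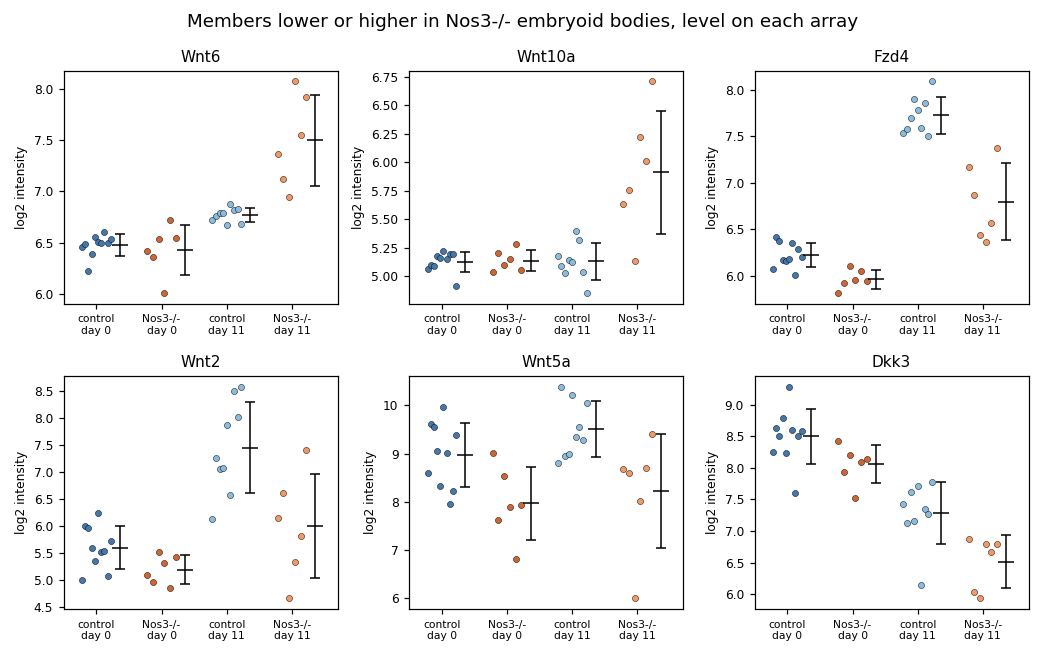
Level (log2 intensity) on each array for 6 members that passed between genotypes at day 11; each point is 1 array, and bars give the mean and SD of a group (10, 6, 9 and 6 arrays). Nos3-/- embryoid bodies lie above control for Wnt6 (from 6.95, against at most 6.88) and below it for Fzd4 (at most 7.37, against 7.50 or more), and the other 4 members overlap.

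Several lists of cell type markers also differed between the embryoid bodies. Among 11 genes of yolk-sac endoderm 7 were lower in Nos3-/-, including Afp (-3.84), Ttr (-2.44) and Apoa1 (-2.34), with list means of 7.85 to 11.91 on control and 5.73 to 7.86 on Nos3-/- arrays. Among 8 genes of paraxial and lateral mesoderm 5 were lower, and among 19 fibroblast genes 7 were lower and 1, S100a4 (1.73, named after its value was seen), was higher. The collagen genes Col1a1, Col1a2 and Col3a1 had differences of -2.91, -0.54 and -1.53, of which Col1a2 did not pass, and the fibroblast list had a median difference of -0.55 and list means of 8.47 to 9.84 in control and 7.90 to 8.83 in Nos3-/-. Among 13 pluripotency genes 6 were higher, with list means of 9.19 to 10.49 in control and 8.93 to 11.64 in Nos3-/-. With the fibroblast mean as a covariate the differences were -0.10 for Wnt2, -0.82 for Wnt5a, -0.71 for Fzd4, -0.47 for Dkk3, 0.88 for Wnt6 and 0.93 for Wnt10a. In that fit limma called 0 members (4 at an unadjusted p under 0.05) and 353 genes in all. With the pluripotency mean as a covariate 6 members passed, against 8.39% of all genes in that fit. Wnt2 (-1.50), Wnt10a (0.60) and Sfrp4 (0.29) did not pass. Without the least correlated array of each group 10 members passed, against 14.2% of all genes in that fit: Dkk3 (-0.64) and Wnt5a (-0.92) did not, and Fzd5 (1.22), Fzd8 (0.93), Dkk2 (-1.39), Wnt11 (-0.63) and Wnt7b (0.38) did. What the yolk-sac and mesoderm genes contribute to the members' differences was not tested.

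The third comparison followed control cells from day 0 to day 11. The receptors Fzd5 and Fzd8 and the antagonists Dkk2, Dkk3, Sfrp1, Sfrp4 and Sfrp5 fell, and the ligands Wnt2, Wnt4 and Wnt6, the receptors Fzd1 to Fzd4 and the antagonist Sfrp2 rose. These are 15 of 37 members (40.5%), against 34.2% of all genes, with 8 higher (21.6%, against 16.0%) and 7 lower (18.9%, against 18.2%). The 2 days did not overlap for Wnt6, Fzd4, Fzd5 and Fzd8, 10.8% of the members against 6.52% of all genes. The median change was -0.01 over the members and -0.03 over all genes.

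Fzd5 went from lowest, median and highest levels of 10.35, 11.71 and 12.29 in control iPSCs to 8.23, 8.84 and 9.72 in control embryoid bodies. No day 11 array reached the lowest day 0 array. The change was -2.62 (SE 0.32, limma adjusted p = 2.68e-07). Fzd8 went from 7.83, 9.56 and 9.85 to 6.33, 7.01 and 7.80, again without overlap, a change of -2.25 (SE 0.34, limma adjusted p = 6.22e-06). Fzd4 moved the other way, from 6.01, 6.19 and 6.41 to 7.50, 7.70 and 8.09, and its change of 1.50 (SE 0.10) had the smallest p of the members in this comparison (limma adjusted p = 1.78e-12). The related receptors Fzd1 and Fzd2 rose by 0.78 and 0.53 (limma adjusted p = 0.0298 and 0.0185), and the planar polarity receptor Fzd3 by 0.83 (adjusted p = 0.00666), although its other 5 probe sets, with changes from -0.21 to 0.41, did not pass and the mean of its probe sets did not either (0.15, adjusted p = 0.270). Fzd1 lost its call in 6 of 19 fits without 1 array (adjusted p up to 0.0649).

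Wnt2 rose in control from 4.99, 5.56 and 6.23 to 6.13, 7.26 and 8.58, and a single day 11 array lay below the highest day 0 array. The change was 1.85 (SE 0.30, limma adjusted p = 1.27e-05). Wnt4, a ligand of the developing kidney and gonad, rose by 0.75 (SE 0.23, adjusted p = 0.0124), and Wnt6 by 0.29 (SE 0.10, adjusted p = 0.0278). Among the antagonists, Dkk2, which can block or aid Wnt signals depending on the cell, went from 7.65, 8.51 and 11.27 to 4.96, 6.65 and 8.04, a change of -1.82 (SE 0.44, limma adjusted p = 0.00165). The highest day 0 value was control array 1, and the remaining arrays of the 2 days overlapped. Dkk3 changed by -1.21 (adjusted p = 9.17e-06), Sfrp5 by -0.77 (adjusted p = 0.0321), Sfrp4 by -0.34 (adjusted p = 0.00163) and Sfrp2 by 0.87 (adjusted p = 0.00553). Sfrp5 lost its call in 5 of 19 fits without 1 array and with the replicate number as a block (-0.68, adjusted p = 0.0859), and Wnt6 without control iPSC array 3 and after quantile normalization (0.25, adjusted p = 0.0678). Without the least correlated array of each group Wnt4 did not pass (0.55, adjusted p = 0.0577), and Dkk1 did, with a change of -1.05 (adjusted p = 0.0218).

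In Nos3-/- cells the antagonists Dkk2, Dkk3, Dkk4 and Sfrp4 and the ligand Wnt8b fell between day 0 and day 11, and the ligands Wnt6 and Wnt10a and the receptors Fzd2, Fzd3, Fzd4 and Fzd6 rose. These are 11 of 37 members (29.7%), against 31.1% of all genes, with 6 higher (16.2%, against 13.0%) and 5 lower (13.5%, against 18.1%). The days did not overlap for Wnt6, Fzd3, Fzd4, Dkk2 and Dkk3, 13.5% of the members against 7.83% of all genes. The median change was 0.07 over the members and -0.06 over all genes.

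Wnt6 went from lowest, median and highest levels of 6.01, 6.48 and 6.72 in Nos3-/- iPSCs to 6.95, 7.46 and 8.07 in Nos3-/- embryoid bodies, a change of 1.06 (SE 0.13, limma adjusted p = 9.03e-07). Wnt10a went from 5.04, 5.13 and 5.28 to 5.13, 5.89 and 6.71, a change of 0.77 (SE 0.15, adjusted p = 0.000230). Wnt6 was above all day 0 arrays on each day 11 array, and Wnt10a on all but array 3. Fzd3 rose by 1.59 (SE 0.29) from 6.33, 7.24 and 8.30 to 8.35, 8.83 and 9.21 (limma adjusted p = 0.000195), and while no other of its probe sets passed alone, 4 of 5 had the same sign and the mean of all passed (0.39, adjusted p = 0.0199). Fzd2 rose by 1.24 (SE 0.22, limma adjusted p = 0.000118), and both of its other probe sets passed with it. Fzd4 rose by 0.84 (SE 0.13, adjusted p = 2.13e-05) and Fzd6 by 0.78 (SE 0.24, adjusted p = 0.0155). Neither of the other 2 probe sets of Fzd6 passed, and 1 of them had the same sign. In a limma fit of the Nos3-/- arrays alone Fzd6 did not pass (adjusted p = 0.0790).

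Dkk2 and Dkk3 gave the largest falls of members that passed in Nos3-/- cells. Dkk2 went from lowest, median and highest levels of 7.73, 8.85 and 10.18 to 4.97, 5.69 and 7.35, so that every embryoid body array was below every iPSC array. The change was -2.83 (SE 0.55, limma adjusted p = 0.000329). Dkk3 went from 7.53, 8.12 and 8.43 to 5.93, 6.73 and 6.87, also without overlap, a change of -1.55 (SE 0.24, adjusted p = 2.17e-05). The fall of Dkk4 was smaller, -0.30 (SE 0.06, adjusted p = 0.000366), and Dkk1, at 0.36, did not pass (adjusted p = 0.703). The falls of Sfrp4 (-0.28) and Wnt8b (-0.23) were small. Sfrp4 lost its call in 7 of 12 fits without 1 array (adjusted p up to 0.116), and Wnt8b in 3 of them and with the mean of its probe sets (-0.04, adjusted p = 0.713). Fzd5 and Fzd8 had changes of -0.25 and 0.06 in Nos3-/- cells that did not pass (limma adjusted p = 0.682 and 0.933). Without the least correlated array of each group 16 members passed, against 36.7% of all genes in that fit, with rises of 0.82 for Fzd8, 1.41 for Dkk1, 1.14 for Wnt2, 0.97 for Fzd1, 0.79 for Wnt4 and 0.46 for Fzd7, while Wnt8b no longer passed. Fzd5 had a change of 0.44 in that fit (adjusted p = 0.226).

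**Figure D4:**
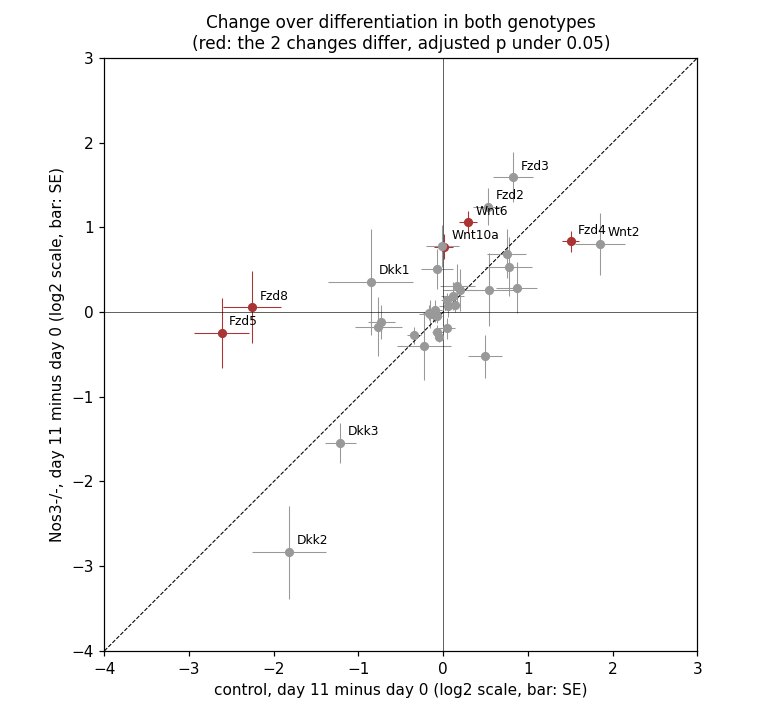
Change from day 0 to day 11 of each of the 37 members in control (horizontal) and Nos3-/- cells (vertical), in log2 units with standard errors; the dashed line marks equal changes, and red marks the 5 members whose changes differ at an adjusted p under 0.05. Fzd5 and Fzd8 lie far to the left at -2.62 and -2.25 in control with Nos3-/- values of -0.25 and 0.06, and Dkk2 lies lowest at -2.83 in Nos3-/- cells.

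The last comparison tested whether the change over 11 days itself differed between genotypes. It did for the receptors Fzd4, Fzd5 and Fzd8 and the ligands Wnt6 and Wnt10a, 5 of 37 members (13.5%) against 1.24% of all genes. The change was more positive in Nos3-/- cells for 4 of them (10.8%, against 0.522%) and more negative for Fzd4 (2.70%, against 0.715%). The median difference between the changes was 0.08 over the members and -0.02 over all genes.

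For Fzd5 the change was -2.62 in control and -0.25 in Nos3-/- cells, and these changes differed by 2.37 (SE 0.52, limma adjusted p = 0.0197). Fzd8, with -2.25 and 0.06, differed by 2.31 (SE 0.55, adjusted p = 0.0314). In both receptors the genotype difference at day 0 was negative and that at day 11 positive, and the second of these did not pass. For Wnt6 the change was 0.29 in control and 1.06 in Nos3-/- cells (difference 0.77, SE 0.17, adjusted p = 0.0188). For Wnt10a it was 0.01 in control, where the level did not pass, and 0.77 in Nos3-/- cells (difference 0.77, SE 0.19, adjusted p = 0.0342). Fzd4 rose in both, by 1.50 in control and 0.84 in Nos3-/- cells (difference -0.67, SE 0.16, adjusted p = 0.0355). Wnt6 passed with any 1 of the 31 arrays left out, while Fzd4 lost its call in 10 of these fits, Wnt10a in 8, Fzd8 in 6 and Fzd5 in 1. The count fell to 1 member without Nos3-/- day 0 array 5, to 2 without Nos3-/- day 0 array 2 or 6 or Nos3-/- day 11 array 4, and to 3 without control day 0 array 6, Nos3-/- day 11 array 5 or control day 11 array 9. The shares of all genes in these fits are not given here. Without the least correlated array of each group 11 members passed, against 8.18% of all genes in that fit, with Fzd5 at 3.17 and Fzd8 at 3.20. The 6 added were Dkk1 (2.47), Sfrp5 (1.29), Fzd2 (1.02), Fzd6 (1.001), Dkk4 (-0.27) and Sfrp1.

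Different probe sets of 1 gene gave the same picture for most results that passed. Of 31 results that passed for a member with further probe sets, 20 had another probe set that passed in the same direction and 0 had one that passed in the opposite direction. In the last comparison, of the changes between genotypes, Wnt6 alone had another that passed in the same direction. Wnt3 was measured only by a probe set of the _x_at type, which can bind several transcripts. The probe set that stood for Wnt5b was of this type too. Sfrp1, a Wnt-binding antagonist and the one member with probe sets that passed between genotypes in opposite directions, has 5. At day 11 the difference between Nos3-/- and control was 3.03 on 1460187_at (limma adjusted p = 2.13e-08) and 1.49 on 1428136_at (adjusted p = 0.000282), but -0.82 on 1448395_at (adjusted p = 0.0436). It was 0.16 on 1416594_at, the probe set with the highest mean, and -0.25 on 1438620_x_at, and neither passed. At day 0 the values were -1.60 on 1448395_at (adjusted p = 7.18e-05) and 1.20 on 1460187_at (adjusted p = 0.00897). No direction between genotypes is therefore given for Sfrp1. Its fall of -0.73 in control over time had the same sign on all 5 and passed on 2.

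**Figure D5:**
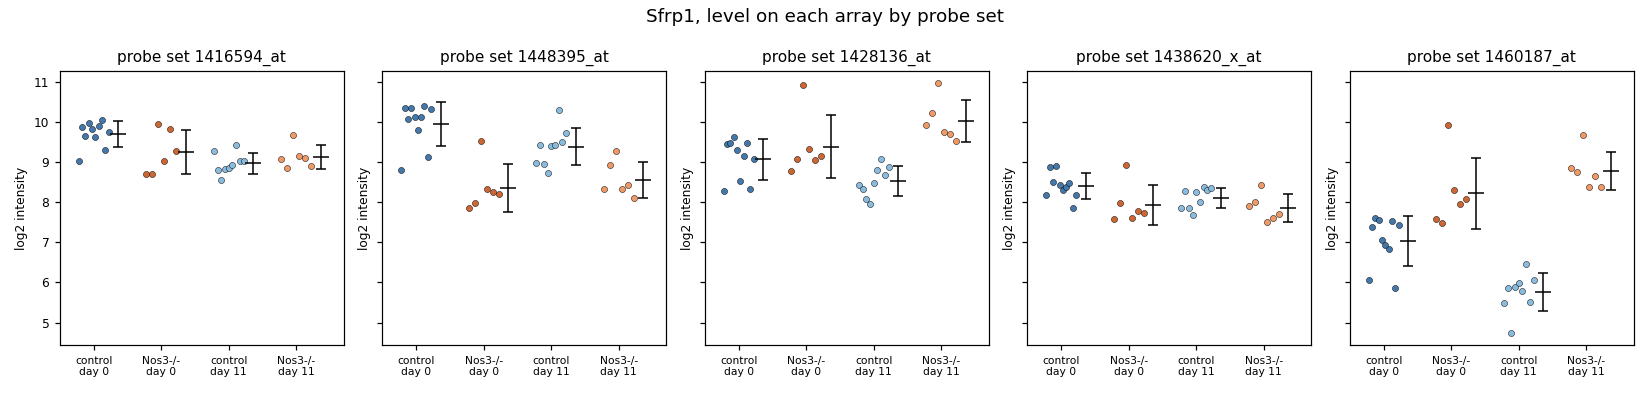
Level (log2 intensity) on each array for the 5 probe sets of Sfrp1; each point is 1 array, and bars give the mean and SD of a group (10, 6, 9 and 6 arrays). At day 11 Nos3-/- arrays lie above control on 1460187_at (difference 3.03) and 1428136_at (1.49) and tend to lie below it on 1448395_at (-0.82), so the genotype difference depends on the probe set.

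The other 15 members, Fzd7, Fzd9, Fzd10 and the ligands Wnt1, Wnt2b, Wnt3, Wnt3a, Wnt5b, Wnt7a, Wnt7b, Wnt8a, Wnt9a, Wnt9b, Wnt10b and Wnt16, passed in none of the 5 comparisons. Members that did not pass at day 0 had differences from -1.004 to 0.51, and 16 of the 30 lay within 0.25 of 0, while at day 11 they ran from -0.95 to 1.05, with 18 of 30 within 0.25. Wnt3a, the ligand most used to switch on beta-catenin in culture, had differences of 0.14 and 0.17, and Wnt8a, a ligand of the primitive streak, of 0.51 and 0.34. Fzd7, the Frizzled best known from pluripotent cells, had means of 10.60 ± 0.27 and 10.44 ± 0.40 at day 0 and 10.71 ± 0.14 and 10.64 ± 0.38 at day 11 in control and Nos3-/- (SD, n = 10, 6, 9 and 6), and changed by 0.11 and 0.20 over time.

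Beyond the members taken by name, 81 further genes of the pathway were measured, in 6 lists. Between the iPSC groups 5 were higher and 22 lower in Nos3-/- (33.3% called), and between the embryoid bodies 2 were higher and 14 lower (19.8%). Over time 25 rose and 10 fell in control (43.2%), and 26 rose and 4 fell in Nos3-/- cells (37.0%). The change over time differed for 1 higher and 1 lower gene (2.47%). The background shares in these comparisons are those given above, and the median genotype differences of the 81 genes were -0.15 at day 0 and -0.01 at day 11.

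Of 12 coreceptors and other receptors, 4 were lower and 1 higher in Nos3-/- iPSCs. The coreceptor Lrp6 differed by -0.76 at day 0 and -0.65 at day 11 (limma adjusted p = 1.74e-05 and 0.000170), Ror1 and the R-spondin receptor Lgr5 by -1.23 and -1.09 at day 0, and Ror2 by 0.64. At day 11 Lgr6 was the second of 2 receptors that passed, at -0.68. Of 16 other secreted or surface modulators, 6 were lower and 1 higher at day 0. Rspo3, an R-spondin that raises Frizzled and Lrp levels at the surface, was lower in Nos3-/- on both days, by -1.66 and -2.54 (limma adjusted p = 0.00237 and 1.61e-05), and its groups did not overlap at day 11. The antagonists Cer1 and Frzb had differences of -1.96 and -1.51 at day 0, and the Wnt deacylase Notum 0.54. Frzb is a secreted Frizzled-related protein whose symbol the naming rule did not take. The glypican Gpc4 was higher at day 11 (1.19, adjusted p = 0.00294) and was the 1 pathway gene whose change over time was more positive in Nos3-/- cells (1.87, adjusted p = 0.0110). Apcdd1 was the other modulator lower at day 11, by -1.12.

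Of 2 genes for Wnt secretion, Porcn rose over time in control (0.96, limma adjusted p = 9.83e-05), and neither Porcn nor Wls passed between genotypes. Of 22 genes of the beta-catenin pathway inside the cell, 5 were lower and 1 higher at day 0, with Tcf7l2 at -0.95 and Cby1 at 0.48, and 2 were lower and 1 higher at day 11, with Ctnnbip1 at -0.55 and the transcriptional repressor Tcf7l1 at 1.02. Ctnnb1, which encodes beta-catenin, had differences of -0.15 and 0.05 that did not pass. Lef1 rose in control by 1.51 (limma adjusted p = 2.64e-05) and did not pass between genotypes (0.28 and -0.47). Pygo1, a partner of beta-catenin, had the more negative change in Nos3-/- cells (-0.58, adjusted p = 0.0191).

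Of 17 genes listed as Wnt targets, 5 were lower and 1 higher in Nos3-/- iPSCs, with Mixl1 at -1.63, Sp5 at -1.60, Dact1 at -1.54 and Cdx1 at 0.44. In embryoid bodies 5 were lower, among them the posterior genes Cdx2 (-1.50) and Evx1 (-1.38). Axin2, the most general target, had differences of -0.24 at day 0 and -0.58 at day 11 that did not pass (limma adjusted p = 0.549 and 0.152), and rose in control by 0.55 (adjusted p = 0.0494). Of 12 planar polarity genes, 2 were lower and 1 higher at day 0 and 3 were lower at day 11. Prickle2 was lower on both days, by -0.81 and -1.22 (limma adjusted p = 0.0107 and 0.000271).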

How the data were processed

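RNA of 31 samples was measured on Affymetrix arrays. Per the submitters' processing notes the authors summarised the arrays with RMA, and the deposited values are log2 intensities, from 2.32 to 15.01 with 0 missing; software version, batch and scan date are not given in the sources used here. RMA puts all arrays on a common distribution, so a shift shared by most genes would not be seen. Of 45101 probe sets 34958 carry 1 gene symbol in the platform table, and the probe set with the highest mean stood for each of 18194 genes.

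The fit across all genes used limma 3.58.1 (R 4.3.3) and gave each of the 4 groups a mean (27 residual and 2.80 prior degrees of freedom), and p-values were adjusted by Benjamini-Hochberg over all genes in each of 5 comparisons. The fit was tested on simulated data whose noise was independent between genes and arrays, so that test does not bear on arrays that stand apart. SE is that of the fit and SD the spread between arrays. Whether replicate numbers pair the samples is not stated in the labels, and the fit took them as unpaired. Same-numbered arrays deviated together (correlation over 0.1) in 3 of 6, 2 of 6, 3 of 9 and 2 of 6 pairs. These counts do not settle it. Array 3 among Nos3-/- and array 1 among control arrays were least correlated with their group on both days.

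Members, lists and tests were chosen with earlier results of these data known. Members that passed somewhere are described with their levels, the others by range with a few names; from each further list the called genes at either end may be named, and from marker lists the first 3. Alternatives changed the normalization, filter, probe set rule, variance model, weights, arrays, block and covariates; the marker covariates other than fibroblasts at day 0, and leaving out the least correlated arrays, were chosen after seeing the data. Promoters are from RefSeq, GRCm38.p6.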

Additional observations from a re-analysis of the deposited data

Results flagged for a closer look

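In 14 of 88 sets of a member's values in 1 group, for the 22 members that passed somewhere, a single array lay far from the others (Dixon's test, where chance flags about 5% of sets). Array 3 of the Nos3-/- iPSCs was high for Fzd5 (12.64, next 10.16), Sfrp5 (8.75, next 6.59) and Wnt8b (5.19, next 4.92). Array 3 of the Nos3-/- embryoid bodies was low for Fzd1 (6.65, next 8.52), Fzd5 (8.98, next 9.85) and Fzd8 (6.26, next 7.76) and high for Sfrp1 (9.68, next 9.15). Control iPSC array 1 was low for Dkk1 (8.18, next 9.53) and high for Dkk2 (11.27, next 9.01), and control iPSC array 10 was high for Fzd2 (10.35, next 9.61) and low for Wnt10a (4.91, next 5.06). Among control embryoid bodies Dkk3 was low on array 6 (6.14, next 7.13), Sfrp5 high on array 3 (7.44, next 6.79) and Wnt11 high on array 4 (8.84, next 7.77).

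The change from day 0 to day 11 differed between genotypes for 5 members by the interaction term in limma, with a more positive change in Nos3-/- cells for Fzd5 (2.37), Fzd8 (2.31), Wnt6 (0.77) and Wnt10a (0.77) and a more negative one for Fzd4 (-0.67).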

How the results depend on the processing

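No called member reversed its direction under any alternative run. Members called between genotypes at day 0 and day 11, in the control and the Nos3-/- change, and in the difference of the changes numbered 7, 7, 15, 11 and 5. With 1 array left out they ranged from 3 to 12, 5 to 10, 13 to 16, 9 to 12 and 1 to 7, and the shares of all genes in those fits are not given here. Leaving out genes under the median level kept 15 members. Of these 4 passed at day 0, 3 at day 11, 5 in Nos3-/- and 2 in the difference. Of all genes kept, 26.5%, 12.3%, 41.3% and 2.11% passed. Array weights gave 14 at day 0, 16 at day 11 and 11 in the difference, against 22.5%, 21.6% and 8.74% of all genes. The replicate block used numbers that may or may not pair the samples. It gave 3 at day 0, 4 at day 11 and 3 in the difference, against 11.6%, 7.82% and 0.907% of all genes. Averaging each gene's probe sets gave 3 in the difference, against 1.18% of all genes. Without the least correlated arrays 16 passed at day 0 and 11 in the difference, against 28.6% and 8.18% of all genes. The fibroblast covariate left 0 at day 0 (limma, 8 unadjusted) and 0 at day 11 (4 unadjusted), and the pluripotency covariate 0 at day 0 (6 unadjusted). Over all genes the fibroblast covariate left 288 calls at day 0 and 353 at day 11, and the pluripotency covariate 692 at day 0, against 3029 and 1764. Array weights gave 3939 at day 11 and 1590 in the difference, and the least correlated arrays left out gave 5208 at day 0 and 1489 in the difference. Beyond the filter, which tests fewer genes, the cause of these shifts was not tested. Covariate fits use the arrays of 1 day.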
